A study of Mus musculus with 5 samples.

Results

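Mab21l1 (ENSMUSG00000056947) and Mab21l2 (ENSMUSG00000057777) are a pair of closely related genes of the mouse eye, and they are described here in single-cell RNA sequencing of the ocular area while the optic vesicle grows out of the forebrain and meets the overlying surface ectoderm. They are 2 of the 27998 genes in the count matrix, picked by symbol. The pair was singled out with its levels in these cells already known, so levels and ratios between cell classes are a description and support nothing beyond themselves. Each stage, at 12, 16, 20, 24 and 26 somites, contributed 1 embryo of strain C57BL/6J, wild type and with no treatment named in the labels. Both optic areas of the embryo were cut out with a needle and dissociated with trypsin, and 2000 cells a sample entered the 10x Chromium 3′ kit, version 3, which counts each captured transcript once by a unique molecular identifier (UMI). The 5 libraries sit in 1 matrix, where a suffix from 1 to 5 on the cell barcode tells them apart without naming a stage. They are called library 1 to library 5 below, and no stage order is read from the numbers.

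The name of the family comes from mab-21 of the nematode Caenorhabditis elegans, a gene that sets cell fate in the sensory rays of the male tail. The vertebrate proteins share a nucleotidyltransferase fold with the DNA sensor cGAS, and what they catalyse, if anything, is not settled. Mice without Mab21l1 have small eyes with a defective lens, and mice without Mab21l2 fail to expand the optic vesicle properly and die in mid-gestation. In the eye region the optic vesicle gives rise to neural retina and pigment epithelium, the surface ectoderm facing it thickens into the lens placode, and crest and head mesoderm form the mesenchyme around both.

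Both genes lie on chromosome 3 of GRCm38 as single-exon genes inside the span of large host genes on the opposite strand. Mab21l1 spans chr3:55782510-55785001 on the plus strand within Nbea, which spans chr3:55625195-56183701 on the minus strand. Mab21l2 spans chr3:86545581-86548629 on the minus strand within Lrba, which spans chr3:86224680-86782692 on the plus strand. Nbea and Lrba encode large BEACH-domain proteins of membrane traffic. The annotation also places 1 exon of a retained-intron Nbea transcript over Mab21l1 and 2 exons of Lrba transcripts over Mab21l2. Whether the counting used strand is not given in the sources used here, so reads of a gene and of an overlapping host exon could only be told apart if it did.

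The coding sequences are 1077 bases long in both genes and identical at 868 positions, or 80.6%. Of the 209 differences, 172 (82.3%) fall on the third base of a codon, where many changes leave the amino acid as it is. The coding windows that follow show how close the copies are, since reads of near-identical genes can be assigned to the wrong one; capitals mark the bases at which the 2 genes differ. The first pair is the most alike window of 120 bases, coding bases 184 to 303, identical at 107 positions (chr3:55783177-55783296 on the plus strand for Mab21l1 and chr3:86547389-86547508 on the minus strand for Mab21l2), and the second pair is the least alike window, coding bases 436 to 555, identical at 87 positions (chr3:55783429-55783548 on the plus strand and chr3:86547137-86547256 on the minus strand).
Mab21l1, most alike: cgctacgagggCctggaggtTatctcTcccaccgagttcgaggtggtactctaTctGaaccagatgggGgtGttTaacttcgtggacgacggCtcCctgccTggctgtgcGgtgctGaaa
Mab21l2, most alike: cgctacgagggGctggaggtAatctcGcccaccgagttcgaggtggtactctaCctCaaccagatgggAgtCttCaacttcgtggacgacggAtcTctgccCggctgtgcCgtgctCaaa
Mab21l1, least alike: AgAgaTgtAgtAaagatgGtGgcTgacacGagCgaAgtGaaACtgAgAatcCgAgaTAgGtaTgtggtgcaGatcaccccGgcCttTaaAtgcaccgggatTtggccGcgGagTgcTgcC
Mab21l2, least alike: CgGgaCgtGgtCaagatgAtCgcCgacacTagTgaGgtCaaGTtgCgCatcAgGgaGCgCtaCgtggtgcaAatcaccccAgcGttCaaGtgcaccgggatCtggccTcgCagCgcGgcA
Even in the most alike window the longest run without a capital is short. Over the whole coding sequence the longest identical run was 26 bases, and none of the 1048 stretches of 30 bases in one coding sequence occurred in the other. The 3′ untranslated regions, 928 bases in Mab21l1 and 1031 bases in Mab21l2, shared none of their 30-base stretches either. The kit reads the 3′ end of a transcript.

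The matrix held 8194 barcodes, 1307 to 1996 a library, with a median depth between 20713 and 30922 UMIs a barcode, lowest in library 5. After 66 called doublets and 22 barcodes over the mitochondrial limit were left out, 8106 cells remained. Clusters were named from marker genes without using the pair, its family or the host genes for the clustering, and the names mean that a cluster is like the cell type. The classes used here held 1861 optic vesicle, 403 surface ectoderm, 1632 mesenchyme (1198 crest and 434 head mesoderm) and 1222 other forebrain cells, and 253 erythroid cells served to read the background of free RNA. The 10 optic vesicle markers summed to 1291 CPM in the optic vesicle class, against 471 CPM in surface ectoderm and 436 CPM in other forebrain, and the 11 surface ectoderm markers summed to 2039 CPM in surface ectoderm, against 34.0 CPM in the optic vesicle; the names rest on these markers, so the sums are a description. Of the barcode sequences, 40 occurred in more than 1 library, and the 80 barcodes involved carried 75 UMIs of the pair in all. With 1 embryo per stage and no map from library to stage, no stages were compared. Between cell classes no test is given, because the pair was chosen for its levels in these cells; the ratios within each library, 1 embryo each, stand beside the pooled ones. A range in brackets after a value is an exact 95% interval (Poisson for levels and ratios, Clopper-Pearson for shares) that covers counting error only.

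Mab21l2 was by far the more abundant of the pair, and most of it sat in the optic vesicle. Optic vesicle cells were 23.0% of all kept cells and held 85.6% of the Mab21l2 UMIs and 66.3% of the Mab21l1 UMIs. Surface ectoderm cells were 4.97% of the cells and held 0.811% of the Mab21l2 UMIs, but 15.2% of the Mab21l1 UMIs. The pair therefore differed in where it was found: Mab21l1 had a second site in the ectoderm and a smaller one in head mesoderm, and Mab21l2 had neither to a like degree.

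**Figure D1:**
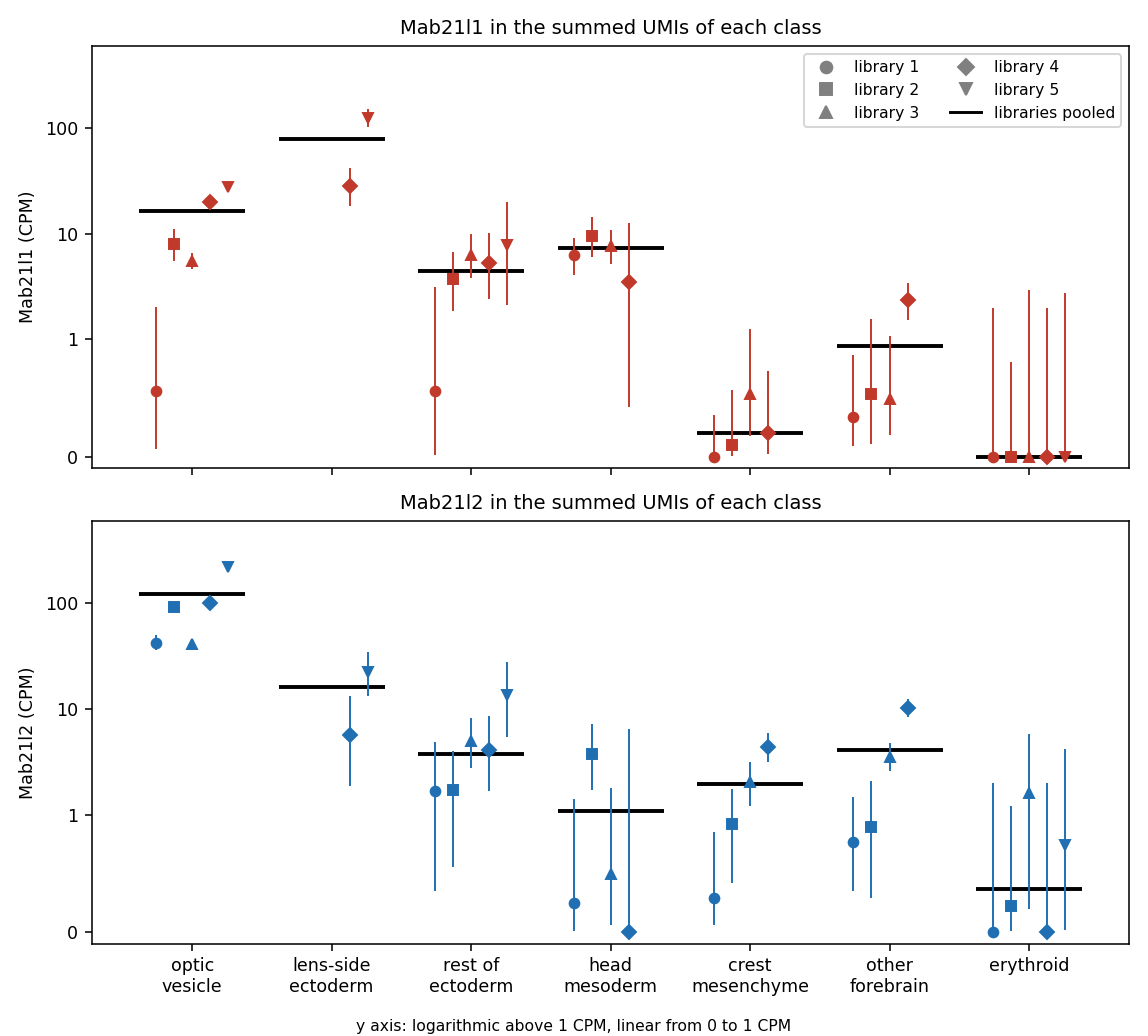
Levels of Mab21l1 (top) and Mab21l2 (bottom) in UMIs of the gene per 1000000 UMIs of the class (CPM) by cell class; symbols are single libraries with at least 20 cells of the class, vertical lines are exact 95% Poisson intervals and horizontal bars are all libraries pooled. Mab21l2 stands highest in the optic vesicle at 123 CPM pooled, and Mab21l1 stands highest in the lens-side ectoderm at 79.2 CPM pooled.

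Levels are given as UMIs of the gene per 1000000 UMIs of the class (CPM). Mab21l2 reached 123 CPM (121–126) in the optic vesicle. Among the classes compared, the next level was that of the lens-side ectoderm sub-cluster, defined below, at 16.0 CPM (11.5–21.6). Other forebrain at 4.13 CPM (3.52–4.80) and the rest of the surface ectoderm at 3.72 CPM (2.62–5.12) could not be told apart. Crest mesenchyme had 1.95 CPM (1.54–2.43) and head mesoderm 1.08 CPM (0.560–1.89), again with overlapping intervals. Erythroid cells, which should lack the gene, had 0.367 CPM (0.100–0.941) from 4 UMIs.

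Mab21l1 followed another order. It reached 79.2 CPM (68.8–90.7) in the lens-side ectoderm and 16.3 CPM (15.4–17.3) in the optic vesicle. Head mesoderm had 7.31 CPM (5.81–9.09) and the rest of the ectoderm 4.42 CPM (3.21–5.93), neighbours whose intervals overlapped slightly. Other forebrain had 0.944 CPM (0.668–1.30), and crest mesenchyme had 0.202 CPM (0.0873–0.399). Erythroid cells held no Mab21l1 UMI, which allows a level of up to 0.276 CPM at 3 counts. Against the same floor within each library, the optic vesicle was 12.2-fold higher in library 2, 2.34-fold in library 3, 12.2-fold in library 4 and 12.5-fold in library 5. The exact lower bounds of those ratios were 9.37, 1.87, 9.87 and 10.1. Library 1, with 2 optic vesicle UMIs, allowed no fold. Among the small classes, 33 neuron cells had 13.2 CPM of Mab21l1 and 14.9 CPM of Mab21l2, but 7 of the 8 and 8 of the 9 UMIs came from the 4 neurons of library 5. Endothelium had 0.309 CPM of Mab21l1 and 1.39 CPM of Mab21l2, and the ventral Nkx2-1 and Shh neuroepithelium, fated to hypothalamus, had 0.278 and 1.49 CPM.

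Within the optic vesicle both genes differed widely between libraries. Mab21l2 stood at 42.5 CPM (36.0–49.9) in library 1, 92.6 CPM (83.7–102) in library 2, 41.5 CPM (38.9–44.3) in library 3, 101 CPM (94.8–107) in library 4 and 221 CPM (215–227) in library 5. Libraries 1 and 3 were the low ones and could not be told apart, while library 5 was high by itself. Mab21l1 stood at 0.563 CPM (0.0682–2.03) in library 1, 7.97 CPM (5.52–11.1) in library 2, 5.57 CPM (4.65–6.63) in library 3, 19.8 CPM (17.3–22.6) in library 4 and 27.8 CPM (25.8–29.9) in library 5. Library 1 held 2 Mab21l1 UMIs in its 103 optic vesicle cells, against 151 Mab21l2 UMIs in the same cells. Under an earlier rule for naming optic vesicle clusters, library 1 had no optic vesicle cell and library 2 had 9.

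Counted by cells, 70.4% (68.3–72.5) of the optic vesicle cells carried at least 1 Mab21l2 UMI and 30.5% (28.4–32.7) at least 1 Mab21l1 UMI, at a median depth of 30804 UMIs. The same shares were 1.58% (0.432–3.998) and 0% (0–1.45) of the erythroid cells at a median of 42576 UMIs. With every cell thinned to 5000 UMIs, they were 37.0% and 8.97% in the optic vesicle and 0% for both genes in erythroid cells. Single cells reached 50 UMIs of Mab21l2 and 11 UMIs of Mab21l1.

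The surface ectoderm held the second site of Mab21l1. Mab21l1 stood there at 0.559 CPM (0.0142–3.12) in library 1, 17.4 CPM (13.2–22.3) in library 2, 13.3 CPM (9.70–17.8) in library 3, 13.2 CPM (9.12–18.4) in library 4 and 81.6 CPM (67.2–98.2) in library 5. Library 1 was low and rested on 1 UMI in 47 cells, 11 of which were a sub-cluster led by genes that include T, Shh and Spink1; libraries 2 to 4 could not be told apart and library 5 was high. Mab21l2 stood at 1.68, 4.34, 6.80, 4.65 and 18.95 CPM in the ectoderm of libraries 1 to 5, on 3, 15, 23, 12 and 26 UMIs.

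Set against the surface ectoderm, the optic vesicle had 19.6 times the Mab21l2 level (15.7–24.8) and 0.814 times the Mab21l1 level (0.709–0.937). Mab21l2 was higher in the optic vesicle in each of the 5 libraries, at ratios of 25.3, 21.4, 6.11, 21.6 and 11.7. A gene was called when it differed at least 2-fold between classes with an interval off 1, reached 20 CPM in the higher class and kept its direction in every library with at least 20 cells of both classes. By that rule 1 of the 2 members, Mab21l2, was higher in the optic vesicle, beside 1.6% of the 5428 genes that reached the minimum level; 5.58% were lower, and Mab21l1 was neither. The pooled Mab21l1 ratio hides libraries that point opposite ways: it was 0.460 (0.293–0.711) in library 2, 0.419 (0.296–0.602) in library 3, 1.505 (1.04–2.23) in library 4 and 0.341 (0.279–0.420) in library 5, and 1.01 (0.0524–59.4) on 2 and 1 UMIs in library 1. With the libraries weighted equally it was 0.490, and under an earlier rule for naming optic vesicle clusters it turned to 1.06.

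The ectoderm was not uniform. Of its 8 sub-clusters, a group of 90 cells carried the most lens markers, with Pitx3, Maf and Cryab past the marker threshold; it is called lens-side ectoderm here. Foxe3 and Cryaa, a lens regulator and a lens crystallin, had no UMI in it, and no lens marker was among its 10 leading genes, so it is not named lens placode. Pitx3, a lens regulator, stood at 19.03 CPM in it (14.1–25.1), on 50 UMIs in 21 cells, all of library 5. Pitx3 had no UMI in the lens-side cells of the other libraries or in the other 313 ectoderm cells. Pax6, the eye master regulator that lens induction depends on, stood at 273 CPM in the lens-side ectoderm and at 69.5 CPM in the rest. Sox2, from the list of lens genes compared below, went the other way when pooled, at 63.2 CPM (53.9–73.6) in it and 107 CPM (100–113) in the rest. Within library 5, though, Sox2 stood at 102 CPM in it, against 11.3 CPM in 23 of the other ectoderm cells. Rax and Lhx2, the optic vesicle regulators, stood at 13.7 and 11.04 CPM in it, against 173 and 254 CPM in the optic vesicle.

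Mab21l1 was itself the leading gene of the lens-side ectoderm, although it took no part in the clustering. It stood at 79.2 CPM (68.8–90.7) there and at 4.42 CPM (3.21–5.93) in the rest of the ectoderm, a ratio of 17.9 (12.9–25.4). Both libraries with at least 20 cells on each side showed it: library 4 had 28.4 CPM in the lens-side and 5.30 CPM in the rest, and library 5 had 126 CPM in the lens-side and 7.77 CPM in the rest. The few lens-side cells of libraries 2 and 3, 17 and 11 in number, stood at 93.8 CPM (69.4–124) and 70.9 CPM (46.3–104). Library 1 had no cell in the sub-cluster.

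Mab21l2 showed a smaller and less certain difference between the same cells, with 16.0 CPM (11.5–21.6) in the lens-side and 3.72 CPM (2.62–5.12) in the rest, a ratio of 4.30 (2.70–6.88). Within library 4 that ratio was 1.38 (0.345–5.04) and within library 5 it was 1.63 (0.656–4.59), both with intervals that hold 1. Of the 2 members, Mab21l1 was called higher in the lens-side ectoderm, beside 0.971% of the 5559 genes that reached the minimum, and 1.04% were lower; Mab21l2 did not reach the 20 CPM minimum, so the size rule did not apply. Other clustering settings left 25 or 26 cells in the lens-side sub-cluster, with Mab21l1 at 133 to 142 CPM in it and at 8.95 to 9.90 times the level of the rest.

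By cells, 85.6% (76.6–92.1) of the lens-side cells carried a Mab21l1 UMI and 28.9% a Mab21l2 UMI, or 35.6% and 10.0% after thinning to 5000 UMIs. In the rest of the ectoderm the shares were 8.63% and 8.31%, or 1.92% and 1.597% after thinning. The difference in Mab21l1 thus held at matched depth. The lens-side level of Mab21l1 was 4.86 times that of the optic vesicle (4.17–5.64), while its Mab21l2 level was 0.130 times that of the optic vesicle (0.0935–0.176). The Mab21l1 ratio was 1.43 (0.906–2.17) in library 4 and 4.53 (3.66–5.55) in library 5, and other clustering settings gave 7.38 to 8.83 pooled.

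A narrower set of ectoderm cells could be drawn from Pitx3 alone. The 21 ectoderm cells with a Pitx3 UMI were all of library 5. Mab21l1 stood at 149.7 CPM in them and at 48.7 CPM in the other 46 ectoderm cells of library 5, a ratio of 3.07 (2.08–4.59). Mab21l2 went the other way, at 2.23 CPM from 1 UMI in the Pitx3 cells and 27.0 CPM in the other ectoderm cells of library 5, a ratio of 0.0826 (0.00201–0.505). Split by Pax6 in the same manner, ectoderm cells with a Pax6 UMI had 24.5 CPM of Mab21l1 and those without had 4.03 CPM, a ratio of 6.08 (3.34–12.3); for Mab21l2 the values were 6.80 and 4.39 CPM, a ratio of 1.55 (0.831–3.15). In the libraries with 20 cells on both sides of the Pax6 split, the Mab21l1 ratio was 3.20 (1.02–16.2) in library 3 and 1.76 (0.619–6.86) in library 4. Splits by other lens genes had no common direction for Mab21l1. For Maf the ratio was 0.504 (0.284–0.874) in library 2 and 4.14 (2.48–7.28) in library 5. For Sox2 it was 0.355 (0.168–0.738) in library 4 and 4.56 (2.70–8.15) in library 5. For Cryab it was 3.07, 3.39 and 6.61 in libraries 2 to 4, but 0.987 (0.647–1.54) in library 5. For Six3 it was 14.3 (4.76–70.3) in library 5.

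The other ectoderm sub-clusters with at least 20 cells stood below the lens side in Mab21l1, but not all of them did in Mab21l2. A sub-cluster of 64 cells led by Hesx1 and Lhx3, genes of the pituitary primordium, had no Mab21l1 UMI and 0.519 CPM of Mab21l2. A sub-cluster of 72 cells led by Nr2e1 and Fezf1 had 5.90 CPM of Mab21l1 and 0.907 CPM of Mab21l2. The 67 cells led by Wnt6 and Neurog1 had 6.77 and 7.74 CPM, and the 25 cells led by Wnt4, Trp63 and Perp, genes of early epidermis, had 11.7 CPM of Mab21l1 (4.28–25.4) and 17.5 CPM of Mab21l2 (8.001–33.2), an interval that holds the lens-side Mab21l2 level of 16.0 CPM.

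Mesenchyme held little of either gene, and the 2 kinds of mesenchyme differed in their Mab21l1 level. Mab21l1 in head mesoderm stood at 6.24 CPM (4.04–9.21) in library 1, 9.59 CPM (6.08–14.4) in library 2, 7.66 CPM (5.21–10.9) in library 3 and 3.51 CPM (0.425–12.7) in library 4, levels that could not be told apart. In crest mesenchyme of the same libraries it stood at 0, 0.102, 0.531 and 0.203 CPM, on 0, 1, 5 and 2 UMIs. Head mesoderm had 36.2 times the Mab21l1 level of crest (17.5–86.6), a ratio that was 71.5 without library 3. Library 1 by itself gave a head mesoderm level 21.5-fold above a crest floor of 3 counts, where the exact lower bound of the ratio was 16.2. Library 3 gave a ratio of 14.4 (5.56–47.5). Mab21l1 did not reach 20 CPM in either class, so the size rule did not apply.

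Head mesoderm was the main home of Mab21l1 in library 1, where 73.5% of the Mab21l1 UMIs fell in its 153 cells. Of all head mesoderm cells 16.4% carried a Mab21l1 UMI, 5.53% after thinning, at a median depth of 24726 UMIs and beside 0% of the deeper erythroid cells. Their Mab21l1 share of the pair's UMIs was 87.1%, against 13.3% to 20.5% over all kept cells of libraries 1 to 4. The 9 head mesoderm markers summed to 374 CPM in the class, with Cyp26c1 at 0, and to 115 CPM in crest. The 9 crest markers summed to more, 606 CPM in head mesoderm and 1104 CPM in crest, so the class does not stand clear of crest by its markers. Head mesoderm cells were also split by Foxc1, Foxc2, Tbx1 and Tcf21, regulators of periocular and muscle-forming mesoderm. The Mab21l1 ratio had an interval off 1 in a single library for Foxc2, at 0.327 (0.125–0.812) in library 2, and in no library for the others.

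Mab21l2 had no common direction between the 2 kinds of mesenchyme. Pooled, it stood at 1.08 CPM in head mesoderm and 1.95 CPM in crest, a ratio of 0.557 (0.276–1.03) whose interval holds 1. The ratio was 0.861 (0.0164–10.7) in library 1, 4.09 (1.44–11.6) in library 2 and 0.245 (0.0277–1.01) in library 3, and library 4 had 0 UMIs in head mesoderm and 43 in crest, a ratio of up to 1.55. In crest it stood at 0.290 CPM in library 1, 0.917 CPM in library 2, 2.02 CPM in library 3 and 4.37 CPM in library 4. Over all barcodes of those libraries it stood at 5.56, 11.7, 16.8 and 31.8 CPM, and in their erythroid cells at 0, 0.218, 1.59 and 0 CPM; the part of free RNA in the crest values was not tested. A mesenchymal cluster of 520 cells, 516 of them from library 5, passed 8 crest markers but was left unnamed by its leading genes. Those 10 genes held Irx3, a marker on the diencephalon and hypothalamus list, and no crest marker. It had 2.27 CPM of Mab21l1 and 7.83 CPM of Mab21l2.

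The optic vesicle stood far above the mesenchyme as a whole for Mab21l2, with 123 CPM in the optic vesicle and 1.76 CPM (1.41–2.16) in mesenchyme, a ratio of 70.1 (56.9–87.4). It was higher in each of libraries 1 to 4, at ratios of 153, 62.9, 26.6 and 24.4. Library 5 held only 12 named mesenchyme cells; without it the ratio was 36.6, and without library 4 it was 111. Mab21l2 was called higher here too, beside 4.19% of the 5295 genes that reached the minimum, with 4.21% lower.

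Mab21l1 stood at 16.3 CPM in the optic vesicle and 1.76 CPM in mesenchyme, a ratio of 9.27 (7.47–11.6), and it did not reach the 20 CPM minimum, so the size rule did not apply. The ratio was 5.18 without library 5 and 15.3 without library 3. In library 1 it was below 1, at 0.323 (0.0371–1.30) on 2 optic vesicle UMIs and 25 mesenchyme UMIs, and in libraries 2, 3 and 4 it was 4.06, 2.08 and 51.6. The surface ectoderm, in turn, had 11.4 times the Mab21l1 level of mesenchyme (8.91–14.7) and 3.57 times its Mab21l2 level (2.60–4.89). In library 1 the Mab21l1 ratio of ectoderm over mesenchyme was 0.321 (0.00782–1.96) on 1 and 25 UMIs, so the size rule was not met.

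Against the neighbouring forebrain, both genes stood higher in the optic vesicle, Mab21l1 in library 1 only by a ratio whose interval holds 1. Mab21l2 stood at 123 CPM in the optic vesicle and 4.13 CPM in other forebrain, a ratio of 29.9 (25.6–35.0), with ratios of 55.7, 104, 11.7 and 9.88 in libraries 1 to 4. Mab21l1 stood at 16.3 CPM in the optic vesicle and 0.944 CPM in other forebrain, a ratio of 17.3 (12.5–24.5), with 1.66 (0.150–11.6), 14.9, 11.3 and 8.48 in libraries 1 to 4. Library 5 held no named forebrain cell, so the pooled ratios set its optic vesicle cells against forebrain cells of other libraries; without library 5 they were 15.1 for Mab21l2 and 9.67 for Mab21l1, and without library 4 they were 66.1 and 35.5. Mab21l2 was called higher in the optic vesicle, beside 1.13% of the 5066 genes that reached the minimum, with 0.888% lower, and Mab21l1 did not reach the minimum, so the size rule did not apply. With the cells clustered under other settings the Mab21l1 ratio lay between 46.8 and 66.2, and the Mab21l2 ratio reached 54.7 with doublets kept.

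Most forebrain UMIs of the pair came from a single sub-cluster. The 217 cells led by Dmrta2 and Rspo3, dorsal telencephalic genes, had 2.88 CPM of Mab21l1 and 12.1 CPM of Mab21l2. The 5 other forebrain sub-clusters ranged from 0.0998 to 0.639 CPM of Mab21l1 and from 0.212 to 2.49 CPM of Mab21l2.

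**Figure D2:**
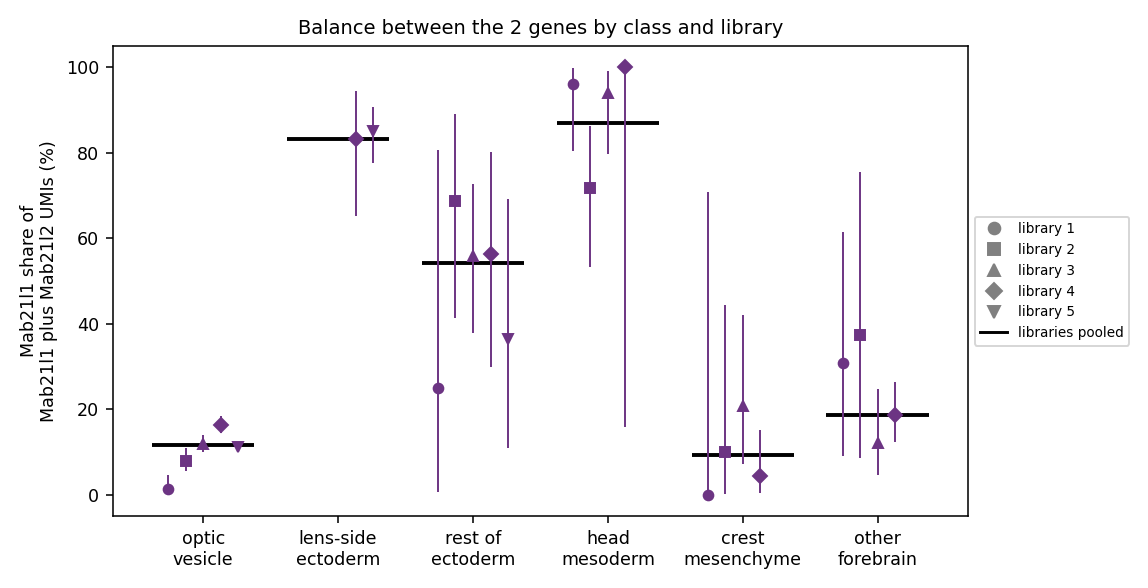
Mab21l1 share of the summed Mab21l1 and Mab21l2 UMIs, in percent, by cell class; symbols are single libraries with at least 20 cells, vertical lines are exact 95% Clopper-Pearson intervals and horizontal bars are all libraries pooled. The share is 11.7% in the optic vesicle and 9.41% in crest mesenchyme, against 83.2% in the lens-side ectoderm and 87.1% in head mesoderm.

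The balance of the 2 genes cancels the total of a class and its depth. Pooled, it set optic vesicle and crest apart from lens-side ectoderm and head mesoderm. The intervals of optic vesicle and crest overlapped, as did those of lens-side ectoderm and head mesoderm. Mab21l1 made up 11.7% (11.05–12.4) of the pair's UMIs in the optic vesicle and 76.1% (71.2–80.6) in the surface ectoderm. In the lens-side ectoderm the share was 83.2% (78.0–87.6) and in the rest of the ectoderm 54.3% (42.9–65.4). It was 87.1% (78.5–93.2) in head mesoderm and 9.41% (4.15–17.7) in crest, while mesenchyme as a whole held 89 UMIs of each gene, the sum of those opposite shares. In the optic vesicle the share was 1.31% in library 1, 7.93% in library 2, 11.8% in library 3, 16.5% in library 4 and 11.2% in library 5. The ectoderm share was 80.0%, 66.2%, 73.9% and 81.2% in libraries 2 to 5, far above the optic vesicle share of the same library. In library 1 it was 25.0% (0.631–80.6) on 4 UMIs, an interval that overlaps that of the optic vesicle, 1.31% (0.159–4.64).

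The optic vesicle itself fell into 12 sub-clusters, in which Mab21l2 spanned 22.9 to 456 CPM and Mab21l1 3.40 to 57.5 CPM. The sub-clusters were drawn from all other genes of the same cells, so their differences in the pair are a description.

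**Figure D3:**
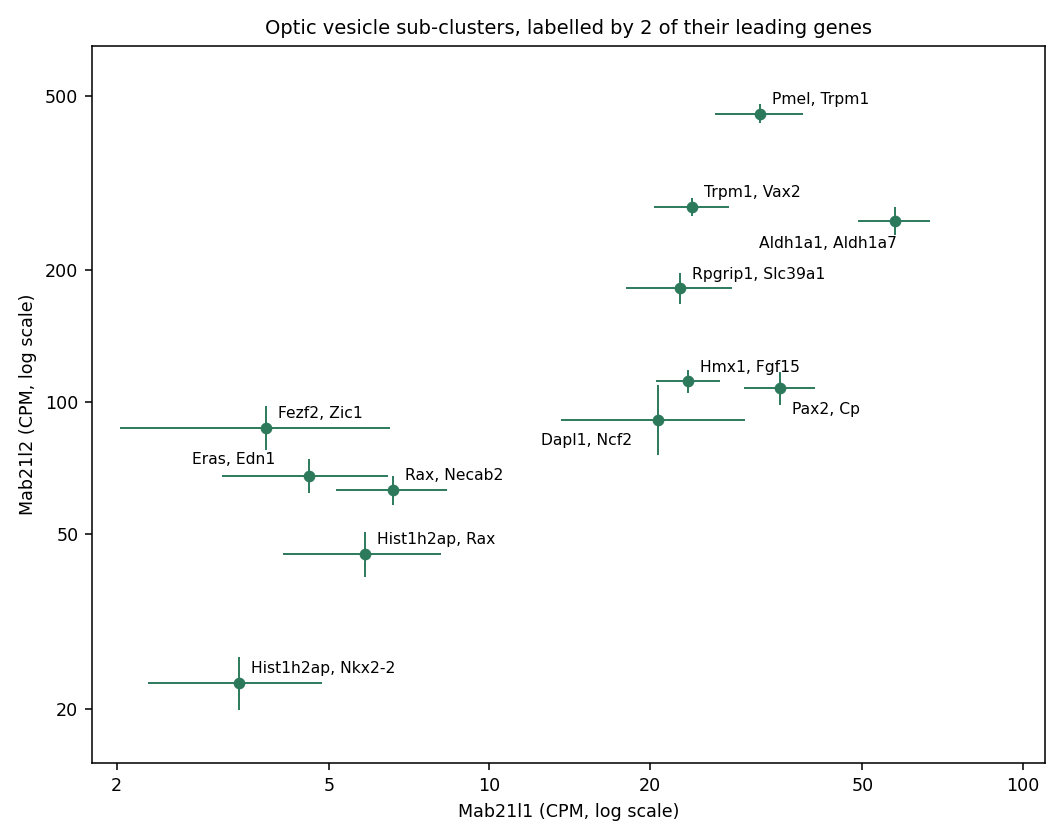
Mab21l1 level (horizontal, CPM, log scale) against Mab21l2 level (vertical, CPM, log scale) in the 12 sub-clusters of the optic vesicle, each labelled by 2 of its leading genes; bars are exact 95% Poisson intervals. Mab21l2 is highest where Pmel and Trpm1 lead, at 456 CPM, and Mab21l1 is highest where Aldh1a1 and Aldh1a7 lead, at 57.5 CPM.

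Mab21l2 was highest in 120 cells of library 5 led by Pmel and Trpm1, genes of the pigment lineage, at 456 CPM (434–479), and every one of those cells carried a Mab21l2 UMI. The 124 cells led by Trpm1 and Vax2 came next with 279 CPM (266–293), again with a Mab21l2 UMI in all cells. Mab21l1 stood at 32.1 and 24.0 CPM in these sub-clusters, a share of the pair of 6.59% and 7.91%.

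Mab21l1 was highest in 92 cells led by Aldh1a1 and Tbx5, genes of the dorsal retina, with 57.5 CPM (49.1–66.9) beside 259 CPM of Mab21l2. It came second, at 35.1 CPM (30.04–40.7), in 159 cells of library 5 led by Pax2, Vax2 and Fgf15, genes of the ventral and neural retina, where Mab21l2 stood at 108 CPM. The Mab21l1 share of the pair was 18.1% (15.7–20.8) in the dorsal sub-cluster and 24.6% (21.4–27.9) in the ventral retinal one. In 127 cells led by Fezf2, Zic1 and Irs4 it was 4.18% (2.24–7.04), with 3.81 CPM of Mab21l1 and 87.4 CPM of Mab21l2. So sub-clusters with about the same Mab21l2 level differed several-fold in Mab21l1.

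The sub-clusters of libraries 1 to 3 were low in Mab21l1. In 226 cells of libraries 1 and 2 led by Eras, Edn1 and Rax, Mab21l2 stood at 42.5 CPM in library 1 and 92.6 CPM in library 2, and Mab21l1 at 0.563 and 8.52 CPM. In the library 3 cells of the 2 sub-clusters led by Rax and Hist1h2ap, Mab21l2 stood at 57.4 and 39.4 CPM and Mab21l1 at 6.35 and 5.73 CPM.

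**Figure D4:**
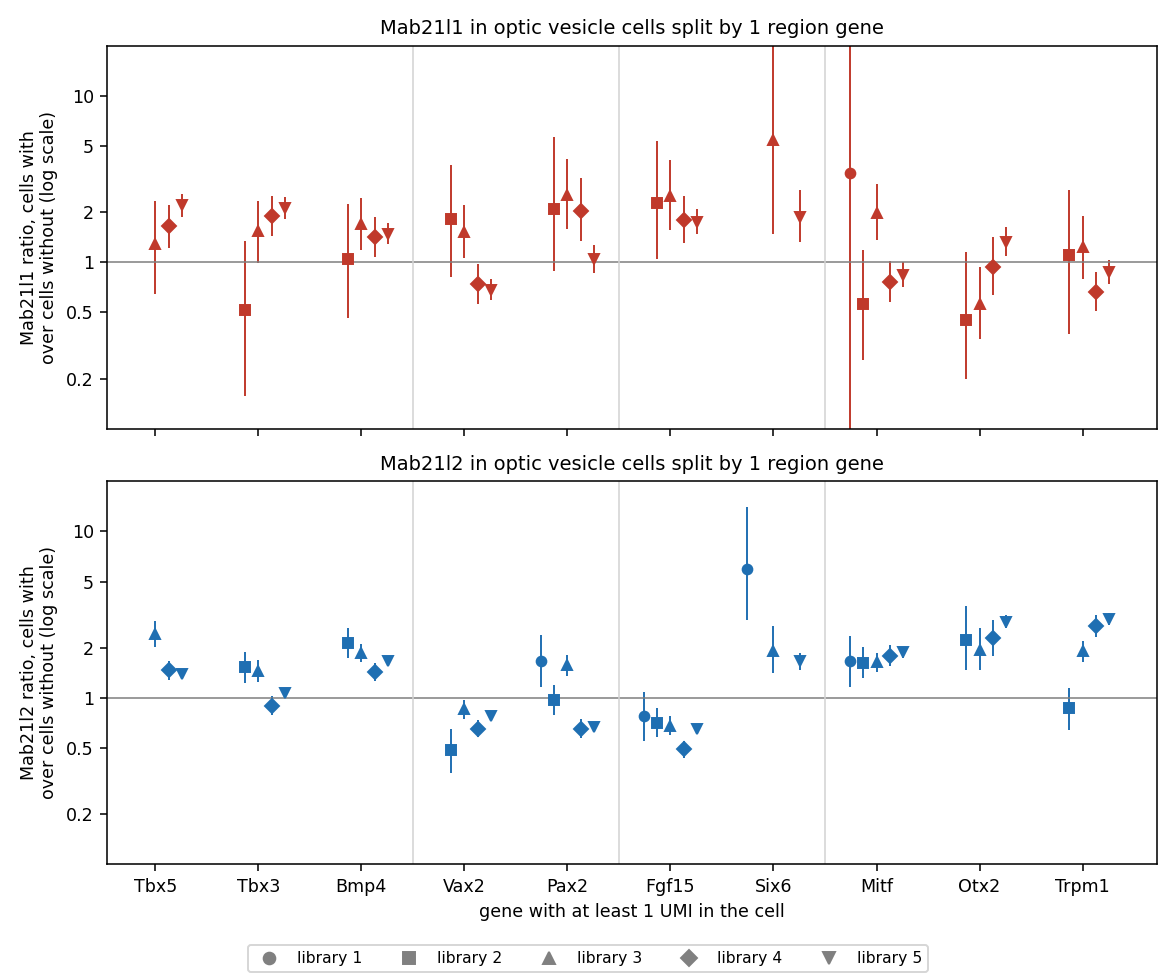
Ratio of the Mab21l1 level (top) and the Mab21l2 level (bottom) in optic vesicle cells with at least 1 UMI of a region gene over those without (log scale), within each library with at least 20 cells on both sides; vertical lines are exact 95% intervals, the horizontal line marks a ratio of 1 and pale vertical lines separate dorsal, ventral, retinal and pigment epithelium genes from left to right. Points with no UMI on one side are not drawn, and a few intervals run off the axis. For Fgf15 the Mab21l1 ratios of libraries 2 to 5 lie above 1 and the Mab21l2 ratios of the same libraries lie below 1.

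Splits of the optic vesicle cells by a single region gene, made within each library, set the members against each other for some genes and not for others. Among retinal genes, cells with Fgf15 had more Mab21l1 than cells without it in libraries 2 to 5, at ratios of 2.28 (1.05–5.33), 2.49 (1.56–4.15), 1.796 (1.30–2.52) and 1.75 (1.48–2.08). The same cells had less Mab21l2, at ratios of 0.709, 0.681, 0.489 and 0.651 in libraries 2 to 5, all with intervals below 1, and 0.773 (0.548–1.08) in library 1. Six6, another retinal regulator, went with more of both: the Mab21l1 ratios were 5.44 (1.48–45.4) and 1.88 (1.33–2.74) in libraries 3 and 5, and the Mab21l2 ratios were 5.95, 1.92 and 1.65 in libraries 1, 3 and 5. Cells with a UMI of a region gene were usually deeper, with medians of 28109 UMIs with Fgf15 and 22276 UMIs without it in library 5; levels in CPM divide by that depth.

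Pigment epithelium genes marked cells with more Mab21l2. Cells with Mitf, the regulator of pigment cells, had more Mab21l2 in all 5 libraries, at ratios of 1.66, 1.63, 1.63, 1.79 and 1.87, all with intervals above 1. For Otx2 the Mab21l2 ratios were 2.24, 1.94, 2.28 and 2.88 in libraries 2 to 5. For Trpm1 they were 1.90, 2.70 and 2.97 in libraries 3 to 5, but 0.866 (0.642–1.15) in library 2, where 20 cells carried Trpm1. The Mab21l1 ratios for Mitf were 1.99 (1.36–2.95) in library 3 but 0.764 (0.575–1.02) in library 4 and 0.843 (0.714–0.999) in library 5, with no common direction.

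The dorsal genes Bmp4 and Tbx5 went with more of both members, for Mab21l1 with an interval that holds 1 in library 2 for Bmp4 and in library 3 for Tbx5. Cells with Bmp4, a dorsal signal of the vesicle, had Mab21l2 ratios of 2.14, 1.86, 1.43 and 1.66 in libraries 2 to 5 and Mab21l1 ratios of 1.05 (0.462–2.24), 1.70 (1.18–2.45), 1.42 (1.08–1.87) and 1.49 (1.28–1.73). For Tbx5, a dorsal regulator, the Mab21l2 ratios were 2.42, 1.47 and 1.39 in libraries 3 to 5, and the Mab21l1 ratios were 1.28 (0.644–2.33), 1.65 (1.23–2.21) and 2.20 (1.88–2.56). Tbx3, another dorsal regulator, was less uniform, with Mab21l2 ratios of 1.52, 1.45, 0.895 (0.784–1.02) and 1.06 (1.004–1.13) and Mab21l1 ratios of 0.517 (0.156–1.35), 1.54 (0.995–2.33), 1.90 (1.44–2.498) and 2.13 (1.83–2.47) in libraries 2 to 5. The ventral regulator Vax2 went with less Mab21l2, at 0.483, 0.852, 0.652 and 0.779 in libraries 2 to 5; for Mab21l1 its ratio was above 1 in library 3 at 1.53 (1.06–2.21) and below 1 in libraries 4 and 5, at 0.738 (0.560–0.977) and 0.686 (0.590–0.799). For Pax2, which marks optic stalk and ventral cup, the Mab21l1 ratios were 2.09 (0.889–5.69), 2.53 (1.596–4.16), 2.04 (1.35–3.20) and 1.05 (0.863–1.28) in libraries 2 to 5, while the Mab21l2 ratios lay above 1 in libraries 1 and 3, at 1.66 and 1.57, and below 1 in libraries 4 and 5, at 0.650 and 0.665.

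Within single optic vesicle cells, the members were found together about as often as the product of their shares gives. Among the 1861 cells thinned to 5000 UMIs, 167 carried Mab21l1, 688 carried Mab21l2 and 70 carried both; the product of the shares within each library gave 72.0 cells, so the ratio was 0.972 (0.758–1.23). With the product taken within library and sub-cluster it was 0.888 (0.692–1.12). Without thinning, 464 cells carried both, and 81.7% of the Mab21l1 cells carried Mab21l2, while 35.4% of the Mab21l2 cells carried Mab21l1. The unthinned ratio was 1.10. With 2 or more thinned UMIs required of each gene, 1 cell carried both and the product gave 4.44, a ratio of 0.225 (0.00570–1.26) whose interval holds 1. Library 5 alone gave 56 of the 70 thinned double cells, at a ratio of 1.02 (0.772–1.33).

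**Figure D5:**
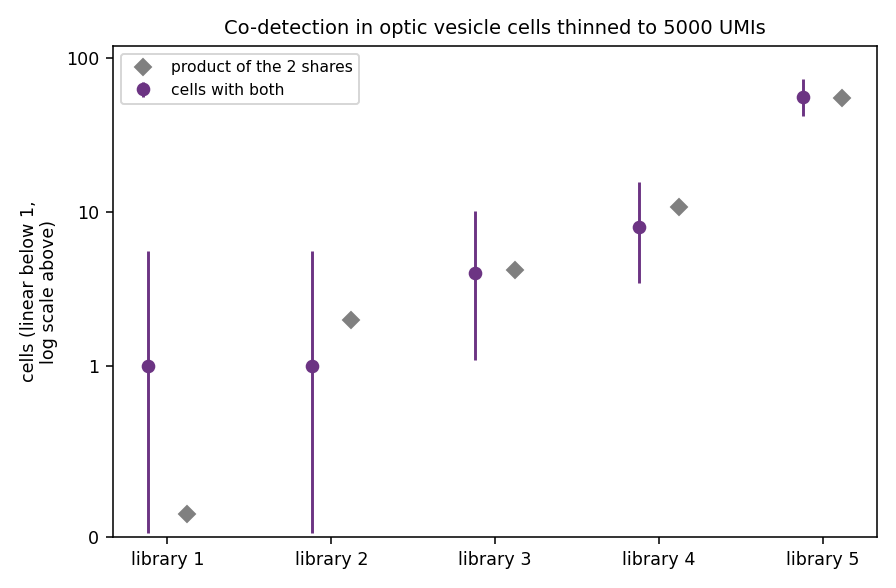
Optic vesicle cells with a UMI of both genes after thinning to 5000 UMIs (circles, with exact 95% intervals) beside the number that the product of the shares gives (diamonds), by library; the vertical axis is linear below 1 cell and logarithmic above. Library 5 holds 56 cells with both, beside 54.8 from the product.

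The share of cells with Mab21l1 changed little with the number of Mab21l2 UMIs. Mab21l1 was found in 8.27% of the thinned optic vesicle cells with no Mab21l2 UMI, in 9.35% of those with 1 and in 11.2% of those with 2 or more. Within library 5 these shares were 11.7%, 11.9% and 12.6%, and within library 4 they ran the other way, at 14.04%, 12.3% and 3.33%, the last from 30 cells. In surface ectoderm 3 thinned cells carried both, beside 1.88 from the product, a ratio of 1.597 (0.329–4.67). In mesenchyme no thinned cell carried both, where the product gave 0.123 cells, so that an excess or a lack of double cells was not detectable at this depth.

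The genes most like each member were sought over 39 sums of a class and library, each with at least 20 cells, from 9 classes, by Pearson r of log2(CPM + 1) among 7462 genes. The points share libraries and classes, so r is given with no p. For Mab21l1 they were Hmx1, an eye and ear homeobox gene, at 0.824, Stra6, the receptor for retinol carried in blood, at 0.788, Aldh1a3, an enzyme of retinoic acid synthesis, at 0.775, Sapcd1 at 0.773, and Ank3, a membrane-skeleton adaptor, at 0.753. For Mab21l2 they were Slc38a8, an amino acid transporter of the eye, at 0.912, Mitf at 0.874, Pax2, a regulator of optic stalk and ventral cup, at 0.871, A730049H05Rik at 0.865 and Vax2 at 0.849. The members had an r of 0.635 with each other, which put Mab21l2 at rank 45 for Mab21l1 and Mab21l1 at rank 26 for Mab21l2.

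Levels show how close these likenesses were. Hmx1 stood at 87.2 CPM in the lens-side ectoderm and 25.2 CPM in the optic vesicle, as Mab21l1 did at 79.2 and 16.3 CPM, but at 0.451 CPM in head mesoderm, where Mab21l1 had 7.31 CPM. Stra6 stood at 79.6 CPM in the lens-side ectoderm, 20.5 CPM in the optic vesicle and 11.6 CPM in head mesoderm, but also at 9.40 CPM in crest, where Mab21l1 had 0.202 CPM. Slc38a8, at 24.6 CPM in the optic vesicle and 3.81 CPM in the lens-side ectoderm, had no UMI in head mesoderm.

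Neither host gene was called in a comparison of the optic vesicle with ectoderm, mesenchyme or forebrain, but Nbea was called higher in the lens-side ectoderm than in the rest, as Mab21l1 was. Of 12 genes of the nucleotidyltransferase-fold family, 10 were matched by symbol; apart from the members, none was called in any optic vesicle comparison, and none reached 20 CPM there. Mb21d2 stood at 5.11 CPM in the optic vesicle and 7.23 CPM in the ectoderm, and Mb21d1, which encodes cGAS, at 0.118 and 0.238 CPM. Tmem102 had 2 UMIs in the optic vesicle and 2.86 CPM in the ectoderm. Nbea, host of Mab21l1, stood at 12.6 CPM in the optic vesicle and 11.8 CPM in the ectoderm, a ratio of 1.07 (0.900–1.29), and Lrba, host of Mab21l2, at 11.2 and 10.4 CPM, a ratio of 1.08 (0.894–1.31). In the lens-side ectoderm Nbea stood at 20.2 CPM and in the rest at 9.54 CPM, a ratio of 2.11 (1.48–2.99). Nbea and Mab21l1 overlap on opposite strands, and the part of shared reads in this value was not tested.

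Eye regulators, lens genes and BMP genes, whose pathway acts in eye and lens formation, are given for comparison. Of 12 eye regulators, 10 reached the minimum level, and 6 were called higher in the optic vesicle than in the ectoderm and none lower, beside 1.6% of all genes called higher and 5.58% lower. The median log2 ratio of those 10 was 3.00, beside -0.02 over all genes that reached the minimum. Of 16 BMP genes 12 reached the minimum there, and none was called higher and 3 lower, namely Id1, Msx2 and Bambi, which are BMP targets or feedback genes, with a median of -0.35 over the 12. Against other forebrain 9 of the 16 reached the minimum, and 4 were called higher in the optic vesicle (Bmp4, Bmp7, Id1 and Id2) and none lower, beside 1.13% and 0.888% of all genes, with a median of 0.36 over the 9 beside -0.04. Bmp4 stood at 96.7 CPM in the lens-side ectoderm and 32.6 CPM in the rest, a ratio of 2.96 (2.503–3.501), and was the only one called there of the 12 BMP genes that reached the minimum. Of the 10 lens genes 5 reached it, and Pax6 and Six3 were called higher in the lens-side ectoderm and none lower, beside 0.971% and 1.04% of all genes; the sub-cluster was chosen by lens markers, so nothing is read from these counts. Sox2, also among those 5, was lower in the lens-side ectoderm when pooled, at 63.2 CPM against 107 CPM in the rest, but by less than 2-fold. Within library 5 it stood at 102 CPM in the lens-side ectoderm and at 11.3 CPM in 23 of the other ectoderm cells.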

How the data were processed

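The deposited matrix holds raw UMI counts per gene and barcode. Per the submitters' processing notes the authors used Cell Ranger with mm10 (GRCm38). The sources used here do not give its version, its cell calling or whether strand was used. All 5 libraries share the matrix, and no sample column was left unused (0).

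From these counts, barcodes under 1000 genes (0), over 10% mitochondrial UMIs (22) or called as doublets by Scrublet in scanpy (66, or 0.808%, at an expected 6%) were dropped. Cells were clustered on 2000 variable genes without the pair, its family and hosts (30 components, 15 neighbours, Leiden resolution 1; scanpy 1.11.5, leidenalg 0.10.2, numpy 2.4.6, scipy 1.17.1, python 3.11.15; plots with matplotlib 3.10.9), giving 24 clusters, 22 neuroepithelial sub-clusters and 8 ectoderm sub-clusters. A class name needed at least 3 markers (7 of 10 for optic vesicle) and leading genes that did not go against it; clusters under 500 CPM of Malat1, a nuclear RNA, were set aside as nucleus-depleted. This rule was set, and once revised from 5 optic markers, after cluster tables that showed the pair's levels had been seen. The first rule also took leading genes against other neuroepithelium. It gave 1280 optic vesicle cells, 9 of them from library 2 and none from library 1. The 103 optic vesicle cells of library 1 and most of the 143 of library 2 were therefore named only by the revised rule. The members and gene lists were chosen with earlier results of these data known.

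CPM is the summed UMIs of a gene per 1000000 UMIs of the class. Shares of cells and co-detection used cells thinned to 5000 UMIs. No test was run: the pair was chosen for its levels in these cells, and stages, with 1 embryo each, could not be mapped to libraries. The ratios and intervals were tried on simulated Poisson counts with the same levels in every library. That is the model behind the intervals, so the trial does not cover differences between libraries. Named genes were the pair, the 2 host genes, the family, 3 lists of eye, lens and BMP genes, region genes for splits, and the 5 genes most alike to each member; results that need certain genes are not reported here. Alternatives were clustering and filter settings, thinning depth, detection at 2 UMIs, the size rule, equal weights and each library left out. The annotation is GENCODE's on GRCm38.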

Additional observations from a re-analysis of the deposited data

Results flagged for a closer look

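The Mab21l1 level of the optic vesicle over that of the surface ectoderm pointed opposite ways between libraries. The ratio was 0.460 in library 2, 0.419 in library 3 and 0.341 in library 5, all with intervals below 1, and 1.505 in library 4, with an interval above 1. The difference between libraries was not tested. The share of lens-side cells in the ectoderm also differed, with 17 of 107 cells in library 2, 11 of 110 in library 3, 24 of 72 in library 4 and 38 of 67 in library 5, and their part in the result was not tested.

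A cluster of 169 cells that entered no comparison carried the pair. It passed 4 optic vesicle markers but stood at 157 CPM of Malat1, a nuclear RNA, with a median of 13108 UMIs, and was set aside as nucleus-depleted. It had 174 CPM of Mab21l2 (158–192) and 10.9 CPM of Mab21l1 (7.21–15.9), against 0.367 and 0 CPM in erythroid cells. Most of its cells, 98, came from library 5.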

How the results depend on the processing

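No paired test over the libraries was run, because the pair was chosen for its levels in these cells; the report gives the ratios within each library. Of the compared values, 145 stayed within their interval or within 1.5 times the reported count, 56 moved beyond it and 1 reversed. Under the first naming rule, chosen after seeing the data, optic vesicle over surface ectoderm reversed for Mab21l1 to 1.06; over mesenchyme it gave 12.1 for Mab21l1 and 87.6 for Mab21l2, and over other forebrain 20.7 for Mab21l2. Equal weights for libraries gave 0.490 and 13.7 over ectoderm, 5.02 and 37.3 over mesenchyme, and 9.16 and 18.0 over forebrain, Mab21l1 before Mab21l2. Over forebrain, Mab21l1 gave 54.4 with doublets kept, 66.2 at resolution 2, 64.2 with the pair allowed in the clustering and 46.8 at 5% mitochondrial UMIs, and Mab21l2 gave 54.7 with doublets kept and 35.8 at 5%. Against ectoderm cells with Pax6 only, Mab21l1 gave 0.666, and with the unnamed library 5 cluster as mesenchyme Mab21l2 gave 45.0. Genes past the size rule numbered 390 over ectoderm, 1715 with no minimum and 243 at 3-fold; 445, 2492 and 269 over mesenchyme; and 102, 545 and 49 over forebrain. Co-detection at 2 UMIs gave 0.225 in the optic vesicle, on 1 cell, 0 in ectoderm and no value in mesenchyme. In the order doublets kept, resolution 2, pair allowed and 5% mitochondrial, lens-side over the rest gave 9.90, 8.95, 9.70 and 9.51 for Mab21l1, and over the optic vesicle 8.02, 7.38, 8.83 and 8.72; for Mab21l2 resolution 2 gave 7.52 over the rest. The causes were not tested.

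Leaving out each library in turn, each 1 embryo of another stage, gave ranges of 0.717 to 0.970 for Mab21l1 and 13.2 to 27.1 for Mab21l2 over ectoderm, 5.18 to 15.3 and 36.6 to 111 over mesenchyme, and 9.67 to 35.5 and 15.1 to 66.1 over forebrain. Genes past the size rule ranged from 393 to 432, 429 to 496 and 74 to 128 in the same order. The Mab21l1 share of the pair ranged from 10.9 to 12.8% in the optic vesicle, 72.5 to 78.7% in ectoderm and 43.0 to 64.9% in mesenchyme. Co-detection ranged from 0.815 to 1.01, 1.29 to 1.78 and 0 to 0. Lens-side over the rest ranged from 13.3 to 24.7 for Mab21l1 and 3.34 to 5.83 for Mab21l2, lens-side over optic vesicle from 3.69 to 6.71, and head mesoderm over crest from 28.4 to 71.5. Library 1 held 2 Mab21l1 UMIs in the optic vesicle and 1 in ectoderm at a median of 30922 UMIs a barcode, so its Mab21l1 ratios have wide intervals.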

Other observations

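Other clusters outside the comparisons held lower levels of the pair. An unnamed cluster of 226 cells, nearly all from libraries 3 and 4, with a median of 57894.5 UMIs, passed no optic vesicle marker. It had 6.63 CPM of Mab21l1 and 23.3 CPM of Mab21l2, pooled over libraries that differed. In library 4 the unnamed cells, 102 of them from this cluster, held 22.5% of the Mab21l1 UMIs, against 9.09% in surface ectoderm. In library 3, where 120 cells were of this cluster, the unnamed cells held 4.37%, against 19.7% in surface ectoderm. Migratory neural crest, 88 cells with Sox10, had 0.790 CPM of Mab21l1 and 5.92 CPM of Mab21l2. A nucleus-depleted cluster of 184 cells, 143 of them from library 1, had 20.5 CPM of Mab21l2 and no Mab21l1 UMI.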
